A study of Mus musculus with 6 samples.

Results

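The transcripts described here are those of 9 enhancer regulators of B cells: the histone methyltransferase genes Kmt2d and Kmt2c, the acetyltransferase genes Crebbp and Ep300, the corepressor genes Hdac3 and Ncor1, and the demethylase genes Kdm1a, Kdm6a and Kdm6b. They were picked by name, at a time when earlier results of these data were known, and each of the 9 symbols matched 1 of the 54838 gene identifiers in the count table. The series compared 3 libraries of mouse B cells given Cpd10 at 1 µM with 3 libraries of cells given DMSO, the solvent control. Cpd10 is labelled as an inhibitor of FOXO1, a transcription factor that acts downstream of PI3K and AKT signalling and takes part in the dark zone programme of the germinal centre. Both groups came from splenic naive B cells of 10 male mice, 3 months old, taken 9 days after immunisation with sheep red blood cells, in 2 independent experiments, with the cells pooled before culture. All cultures were activated for 5 days with an anti-CD40 antibody at 5 µg/ml and interleukin 4 at 80 ng/ml, in a medium for embryonic stem cells. The compound or DMSO was present from day 3 to day 5, a span of 48 hours. The labels name no genotype, transgene or clone. The cells were thus naive B cells activated in a dish, and not germinal centre B cells sorted from an animal. The labels do not tie the replicate letters A, B and C to animals or to separate cultures, and the p-values therefore cover only differences among these libraries, which may be technical.

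Enhancers are switched on and off by opposed enzymes. KMT2D and KMT2C place a single methyl group on lysine residues of histone H3 that mark enhancers, and CREBBP and EP300 acetylate histone H3 there and open the enhancer for transcription. HDAC3, which is active when bound to a corepressor such as NCOR1, removes acetyl groups, KDM1A (also called LSD1) removes the enhancer methyl mark, and KDM6A (UTX) and KDM6B (JMJD3) remove the repressive methyl mark laid down by Polycomb. In germinal centre B cells the repressor BCL6 brings the NCOR and HDAC3 complex to enhancers that CREBBP acetylates, and switches off genes of antigen presentation and of exit from the germinal centre until signals such as CD40 release them. KMT2D and CREBBP are among the genes most often mutated in human follicular lymphoma and diffuse large B cell lymphoma.

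The regions just before the annotated starts of both methyltransferase genes and of the demethylase genes Kdm1a and Kdm6a are printed below, because the compound is directed at a DNA-binding factor and FOXO factors read a short DNA motif. Sequences are from RefSeq on GRCm38.p6, 5′ to 3′ on the strand of the gene, and each holds the 250 bases before the start. Capitals mark the GC box, GGGCGG or its reverse complement CCGCCC, with overlapping matches merged.
Kmt2d, chr15:98871206-98871455, minus strand: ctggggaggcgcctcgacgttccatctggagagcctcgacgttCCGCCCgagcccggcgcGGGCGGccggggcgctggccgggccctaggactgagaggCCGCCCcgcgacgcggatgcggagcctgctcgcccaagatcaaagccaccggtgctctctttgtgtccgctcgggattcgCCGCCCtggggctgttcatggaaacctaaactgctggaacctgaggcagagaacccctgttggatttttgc
Kmt2c, chr5:25498784-25499033, minus strand: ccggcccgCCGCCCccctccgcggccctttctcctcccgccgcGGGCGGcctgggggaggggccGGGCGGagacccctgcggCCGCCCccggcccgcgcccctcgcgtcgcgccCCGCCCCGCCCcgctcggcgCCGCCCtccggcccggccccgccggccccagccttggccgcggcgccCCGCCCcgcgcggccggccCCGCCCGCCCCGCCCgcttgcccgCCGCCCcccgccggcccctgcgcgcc
Kdm1a, chr4:136602724-136602973, minus strand: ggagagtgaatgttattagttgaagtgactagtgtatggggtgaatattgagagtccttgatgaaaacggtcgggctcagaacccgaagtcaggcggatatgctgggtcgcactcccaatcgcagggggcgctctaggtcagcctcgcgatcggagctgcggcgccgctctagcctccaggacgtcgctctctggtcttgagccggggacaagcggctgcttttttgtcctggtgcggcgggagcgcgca
Kdm6a, chrX:18162325-18162574, plus strand: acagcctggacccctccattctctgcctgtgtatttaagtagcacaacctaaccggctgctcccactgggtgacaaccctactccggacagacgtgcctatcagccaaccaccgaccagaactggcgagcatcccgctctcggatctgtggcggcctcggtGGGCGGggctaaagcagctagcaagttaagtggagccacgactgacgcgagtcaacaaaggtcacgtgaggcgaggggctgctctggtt

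The 4 regions are rich in CpG. That of Kmt2c holds 48 CpG and is 91.6% G and C, that of Kmt2d holds 26 CpG and 67.6% G and C, Kdm1a 21 and 59.2%, and Kdm6a 15 and 59.6%, beside medians of 6 CpG and 52.4% over 32841 such windows. RefSeq gave 8 windows for 7 of the 9 genes, all but Hdac3 and Kdm6b. The FOXO motif GTAAACA, searched on both strands, was in 0 of the 8 windows and in 3.17% of all windows. Its core AAACA was in 1 of the 8, a second start of Ncor1 that lies inside the gene and is poor in CpG, and in 46.4% of all windows. A GC box was in 6 of the 8 windows and in 32.8% of all windows, with 12 matches before Kmt2c, 4 before Kmt2d, 1 before Kdm6a and 0 before Kdm1a. The ETS motif CCGGAAG was found before Ncor1 alone among the members (6.91% of all windows), and the CCAAT box before Kdm1a alone (33.9% of all windows). These are matches of letters in short windows and carry no information on binding.

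Libraries held 38110927 to 44859930 counts with Cpd10 and 36873204 to 42798114 with DMSO. Every member had at least 1616 counts in every library, up to 15742, so that counting error is small beside the differences among libraries. There were 2 sets among the 6 libraries, and each set held both treatments. Set 1 held Cpd10 A, DMSO A and DMSO C, and set 2 held Cpd10 B, Cpd10 C and DMSO B. The first principal component, with 46.3% of the variance, separated these sets. The labels do not give the sets, which were found in these counts, so the results below are given without the set first, and with it as a term for the members and for list genes that it called. B cell markers were present in all libraries (summed level of 8 genes 10861 to 13260 CPM with Cpd10 and 12964 to 14711 CPM with DMSO). Germinal centre B cell markers summed to 667 to 1123 CPM with Cpd10 and 730 to 1035 CPM with DMSO, and Rgs13 among them stayed under 1 CPM in every library. Of the markers of other cells, 5 of 6 T cell, 5 of 6 myeloid and 3 of 3 erythroid genes stayed under 1 CPM in every library. T cell markers summed to 0.617 to 1.01 CPM with Cpd10 and 1.05 to 1.71 CPM with DMSO, and myeloid markers to 8.77 to 15.3 CPM with Cpd10 and 14.2 to 21.9 CPM with DMSO. NK cell markers summed to 1.98 to 9.94 CPM with Cpd10 and 3.58 to 12.8 CPM with DMSO, and stromal and endothelial markers to 4.93 to 10.1 CPM with Cpd10 and 11.9 to 20.7 CPM with DMSO. The gap in this last sum came mainly from a single gene, Pecam1 (4.10 to 5.83 CPM with Cpd10, 10.2 to 19.5 CPM with DMSO). Col1a1 and Col1a2 stayed under 1 CPM in every library. The part of other cells in the results was not tested. Plasma cell markers summed to 2155 to 3086 CPM with Cpd10 and 2018 to 4359 CPM with DMSO, but the 5 genes went different ways. The log2 fold change, Cpd10 minus DMSO, was -0.89 for Prdm1, -1.40 for Sdc1 and -1.39 for Jchain. It was 0.13 for Xbp1 and 0.39 for Irf4, and the edgeR adjusted p of the 5 genes ran from 0.604 to 0.910. DMSO C was the highest library for Prdm1 (74.3 CPM), Sdc1 (87.7 CPM) and Jchain (2057 CPM). These are bulk libraries, in which fewer cells of a type and less RNA per cell cannot be told apart.

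All 9 enhancer regulators were transcribed in these cells, at levels that spanned a wide range per length. On the scale of CPM per kilobase of annotated exon, Ncor1 was the highest, with a mean of 22.8 ± 3.83 with Cpd10 and 23.0 ± 1.38 with DMSO (SD, n = 3 each here and below). Kdm1a stood at 22.4 ± 0.951 with Cpd10 and 21.4 ± 1.63 with DMSO, and Hdac3 at 20.7 ± 1.43 with Cpd10 and 19.3 ± 0.634 with DMSO. Of these 3 genes of corepressor complexes, neighbours in the order overlapped in range. With DMSO, though, Ncor1 (21.9 to 24.6) lay wholly above Hdac3 (18.7 to 19.9). The share of tested genes at or below these 3 genes per length was 81.9% for Hdac3, 83.4% for Kdm1a and 84.0% for Ncor1, against 47.0% for Kmt2c. Below them, without overlap, came Ep300 (11.4 ± 2.43 with Cpd10, 12.4 ± 1.19 with DMSO) and Kmt2d (10.8 ± 0.903 with Cpd10, 11.8 ± 2.41 with DMSO). Kdm6b, Kdm6a and Crebbp followed with overlapping ranges, from 7.85 ± 2.46 (Kdm6b) to 5.88 ± 1.14 (Crebbp) with Cpd10 and from 9.06 ± 2.36 (Kdm6b) to 6.90 ± 0.289 (Crebbp) with DMSO. Kmt2c was lowest in both groups, with 3.62 ± 0.913 with Cpd10 and 4.11 ± 0.856 with DMSO, and its 3 libraries lay below the 3 of Crebbp in each group. The order of the group means was the same with Cpd10 and with DMSO. Within the paralogue pairs, Kmt2d stood above Kmt2c and Ep300 above Crebbp in all 6 libraries.

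**Figure D1:**
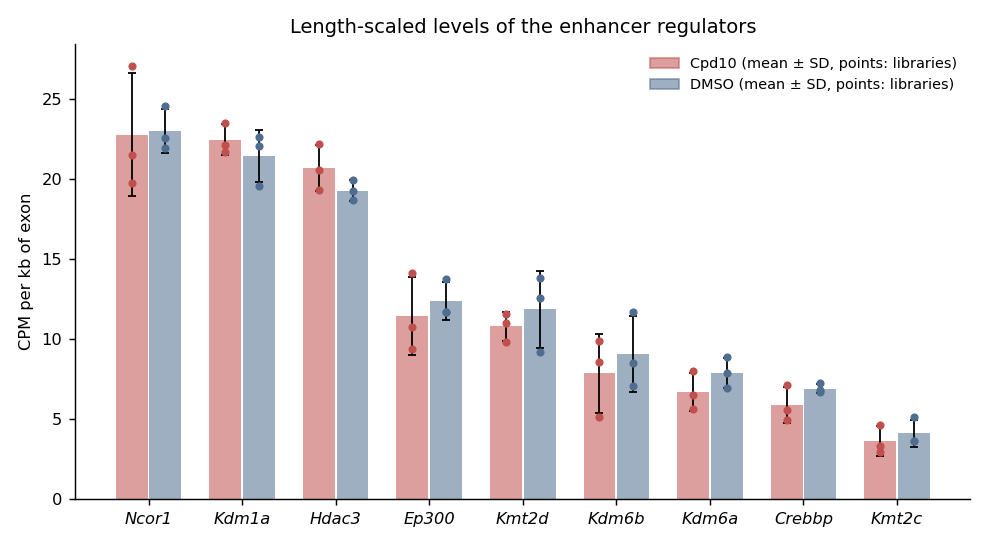
Level of each enhancer regulator in CPM per kilobase of annotated exon, with Cpd10 (red, left bar) and DMSO (blue, right bar); bars are means of 3 libraries, error bars SD and points single libraries. Ncor1, Kdm1a and Hdac3 lie near 20 or above, and Kmt2c is lowest at 3.62 with Cpd10 and 4.11 with DMSO.

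Against DMSO, none of the 9 transcripts passed the test with Cpd10. EdgeR's quasi-likelihood test over 15136 genes called 0 of the 9, beside 0.37% of all tested genes, and the unadjusted p lay under 0.05 for 0 of the 9, beside 8.39% of all tested genes. DESeq2 and limma-voom also called 0 of the 9, beside 2.52% and 0.33% of all genes they tested. Without Cpd10 A, edgeR's unadjusted p lay under 0.05 for 3 of the 9, all lower with Cpd10 (Crebbp, Kdm6a and Ep300), beside 11.5% of all tested genes, and 0 of the 9 were called. The groups overlapped for all 9 genes, where 14.6% of tested genes showed no overlap (7.32% with all Cpd10 libraries below DMSO and 7.31% above). The log2 fold changes, Cpd10 minus DMSO, ran from -0.24 (Kdm6a) to 0.10 (Hdac3) with a median of -0.14, beside a median of -0.0012 over all tested genes. They were negative for 7 genes and positive for 2. Of the 9, 6 were smaller in size than the median absolute log2 fold change of all tested genes, 0.19. The plot of CPM by library shows that the libraries of 1 group often lay as far apart as those of different groups.

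**Figure D2:**
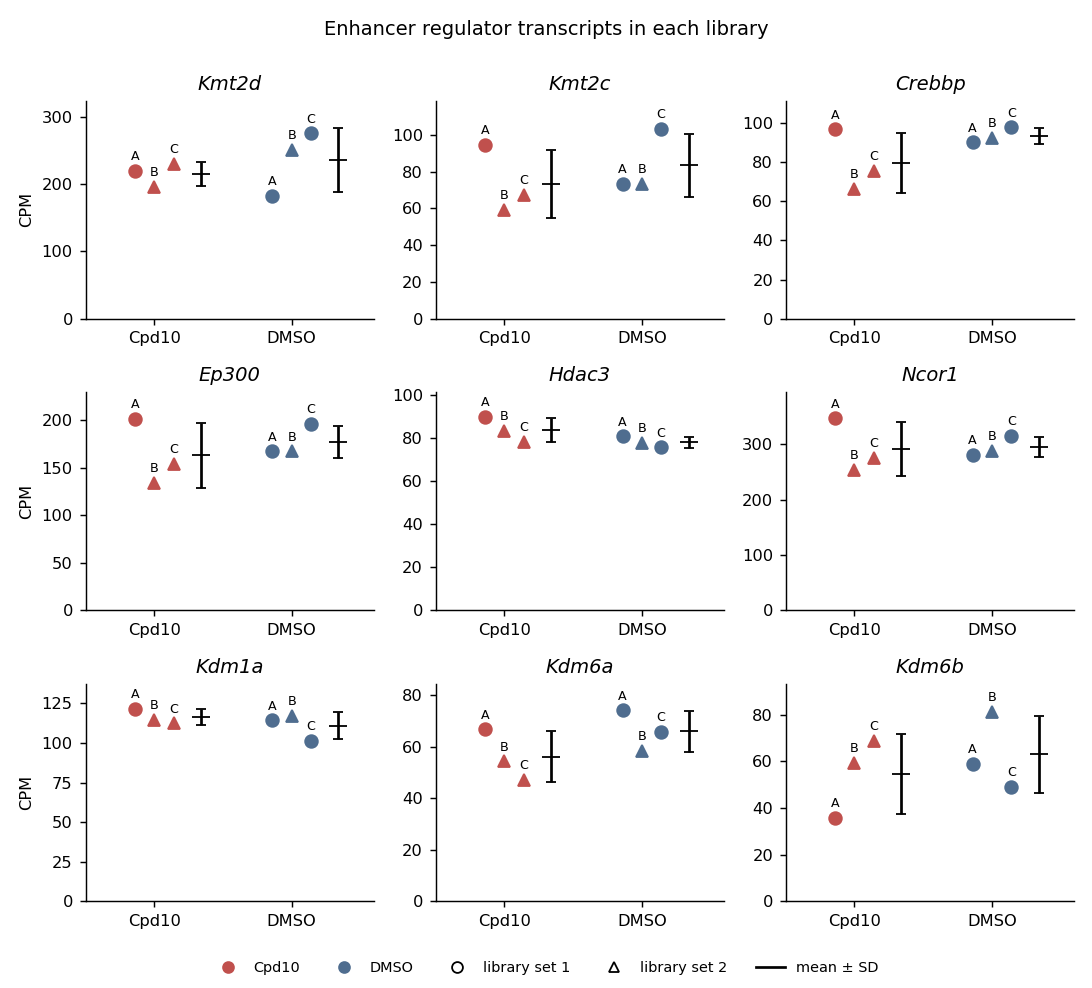
CPM of each enhancer regulator in the 6 libraries, Cpd10 left (red) and DMSO right (blue), with the replicate letter above each point, circles for library set 1 and triangles for set 2, and the mean ± SD beside each group. All 9 pairs of groups overlap, and for Kdm6b the Cpd10 libraries lie below the DMSO libraries among the circles and among the triangles.

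Kmt2d (chromosome 15, 98831669 to 98871204, ENSMUSG00000048154) encodes the main writer of the enhancer methyl mark in germinal centre B cells. It was at 219, 195 and 230 CPM in Cpd10 libraries A, B and C, and at 183, 250 and 275 CPM in DMSO libraries A, B and C. The DMSO libraries held both the lowest and the highest of the 6 values. Means were 215 ± 18.0 CPM with Cpd10 and 236 ± 47.9 CPM with DMSO, with a difference of -0.14 on the log2 scale (edgeR adjusted p = 0.896, SE 0.16). It was -0.29 without DMSO A and -0.0042 without DMSO C. Its paralogue Kmt2c (chromosome 5, 25271798 to 25498783, ENSMUSG00000038056) was at 94.3, 59.0 and 67.1 CPM with Cpd10 and at 73.1, 73.5 and 103 CPM with DMSO. Here Cpd10 A and DMSO C stood above the other 4 libraries, and the log2 fold change was -0.18 (SE 0.21, edgeR adjusted p = 0.894). The log2 fold change of Kmt2c was -0.39 without Cpd10 A and 0.0074 without DMSO C.

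Crebbp (chromosome 16, 4081328 to 4213997, ENSMUSG00000022521) encodes the acetyltransferase that opposes BCL6 at enhancers. It was at 96.6, 66.4 and 75.6 CPM in Cpd10 libraries A, B and C, and at 90.1, 92.4 and 97.7 CPM in the DMSO libraries. The DMSO libraries lay close together, 2 of the 3 Cpd10 libraries lay below them and Cpd10 A lay among them. The log2 fold change was -0.23 (SE 0.14, edgeR adjusted p = 0.759), and its unadjusted p of 0.145 was the smallest of the 9 members. Without Cpd10 A the log2 fold change of Crebbp was -0.39 (edgeR adjusted p = 0.262), and without Cpd10 B it was -0.12. Ep300 (chromosome 15, 81585351 to 81652077, ENSMUSG00000055024), the paralogue of Crebbp with a largely shared function, was at 201, 134 and 153 CPM with Cpd10 and at 167, 167 and 196 CPM with DMSO. Cpd10 A was the highest of the 6 libraries and Cpd10 B the lowest. Its log2 fold change was -0.12 (SE 0.16, edgeR adjusted p = 0.911), and it was -0.29 without Cpd10 A and 0.0050 without Cpd10 B.

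Hdac3 (chromosome 18, 37935844 to 37955016, ENSMUSG00000024454), the deacetylase of the corepressor complex, varied least among libraries together with Kdm1a. It was at 89.8, 83.2 and 78.2 CPM with Cpd10 and at 80.8, 77.9 and 75.7 CPM with DMSO. The groups overlapped, and the log2 fold change was 0.10 (SE 0.092, edgeR adjusted p = 0.859). Ncor1 (chromosome 11, 62316426 to 62458541, ENSMUSG00000018501), the scaffold that activates HDAC3, was at 347, 253 and 275 CPM with Cpd10 and at 281, 289 and 315 CPM with DMSO. As for Ep300, Cpd10 A was the highest library and Cpd10 B the lowest, and the group means of 292 ± 49.1 CPM with Cpd10 and 295 ± 17.7 CPM with DMSO were close (log2 fold change -0.016, SE 0.14, edgeR adjusted p = 0.986).

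Kdm1a (chromosome 4, 136550540 to 136602723, ENSMUSG00000036940), the demethylase that works with CoREST and with BCL6 in germinal centre B cells, was at 122, 115 and 112 CPM with Cpd10 and at 114, 117 and 101 CPM with DMSO. The log2 fold change was 0.067 (SE 0.094, edgeR adjusted p = 0.913). Kdm6a (chromosome X, 18162575 to 18279936, ENSMUSG00000037369), which also sits in the KMT2C and KMT2D complexes, was at 66.8, 54.3 and 47.3 CPM with Cpd10 and at 74.1, 58.3 and 65.9 CPM with DMSO. The lowest 2 libraries had Cpd10 and the highest had DMSO, with Cpd10 A second, and the log2 fold change was -0.24 (SE 0.15, edgeR adjusted p = 0.777). It was -0.37 without Cpd10 A and -0.13 without Cpd10 C. Its Y-linked paralogue Uty, read in these male cells, was at 25.3 ± 2.78 CPM with Cpd10 and 25.7 ± 1.95 CPM with DMSO. Reads that match both copies could affect both values, which was not tested.

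Kdm6b (chromosome 11, 69398508 to 69413675, ENSMUSG00000018476), an inducible demethylase of the Polycomb mark, varied most. It was at 35.6, 59.3 and 68.8 CPM in Cpd10 libraries A, B and C, and at 58.9, 81.0 and 49.0 CPM in the DMSO libraries. Over all 6 libraries the groups overlapped, with a difference of -0.21 on the log2 scale (edgeR adjusted p = 0.911, SE 0.28), and it was 0.034 without Cpd10 A and 0.016 without DMSO B. In set 1, Cpd10 A at 35.6 CPM lay below DMSO A at 58.9 CPM and DMSO C at 49.0 CPM, a log2 difference of -0.59. In set 2, Cpd10 B at 59.3 CPM and Cpd10 C at 68.8 CPM lay below DMSO B at 81.0 CPM, a log2 difference of -0.34. With the library set as a term, Kdm6b was lower with Cpd10, at a log2 difference of -0.47 (edgeR adjusted p = 0.0338, SE 0.11). That fit called 3.96% of all tested genes, 2.32% as higher and 1.64% as lower, and Kdm6b was the only one of the 9 that it called. The call is exploratory, since the set was found in the same counts, and it was lost without any 1 of the 3 Cpd10 libraries or without DMSO B (edgeR adjusted p = 0.634, 0.130 and 0.0670 without Cpd10 A, B and C, and 0.0938 without DMSO B). The log2 fold change in these fits, in the same order, was -0.32, -0.44, -0.53 and -0.60. The antisense transcript Kdm6bos overlaps part of Kdm6b (4.11% of its exon length lies in exons of another gene), and had 4 to 29 counts per library.

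The intervals show what these libraries could resolve. For all 9 genes the 95% interval of the log2 fold change, unadjusted and without the set, held 0. For 6 of them (Kmt2d, Crebbp, Ep300, Hdac3, Ncor1 and Kdm1a) it excluded both a rise and a fall of 1.5-fold. For Crebbp this was by a small margin, with a lower bound of 0.677 as a fold of Cpd10 over DMSO. Without Cpd10 A its log2 fold change was -0.39 (SE 0.11), and no interval was computed without that library. The narrowest intervals, as folds of Cpd10 over DMSO, were 0.900 to 1.22 for Kdm1a and 0.924 to 1.24 for Hdac3. The widest was 0.553 to 1.36 for Kdm6b, and those of Kmt2c (0.627 to 1.24) and Kdm6a (0.663 to 1.09) also reached a fall of 1.5-fold. With the set as a term the log2 fold change was -0.15 for Kmt2d, -0.061 for Kmt2c, -0.17 for Crebbp, -0.035 for Ep300 and 0.13 for Hdac3. It was 0.046 for Ncor1, 0.065 for Kdm1a, -0.13 for Kdm6a and -0.47 for Kdm6b, and the median over the 9 genes was -0.061, against -0.14 without the set.

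**Figure D3:**
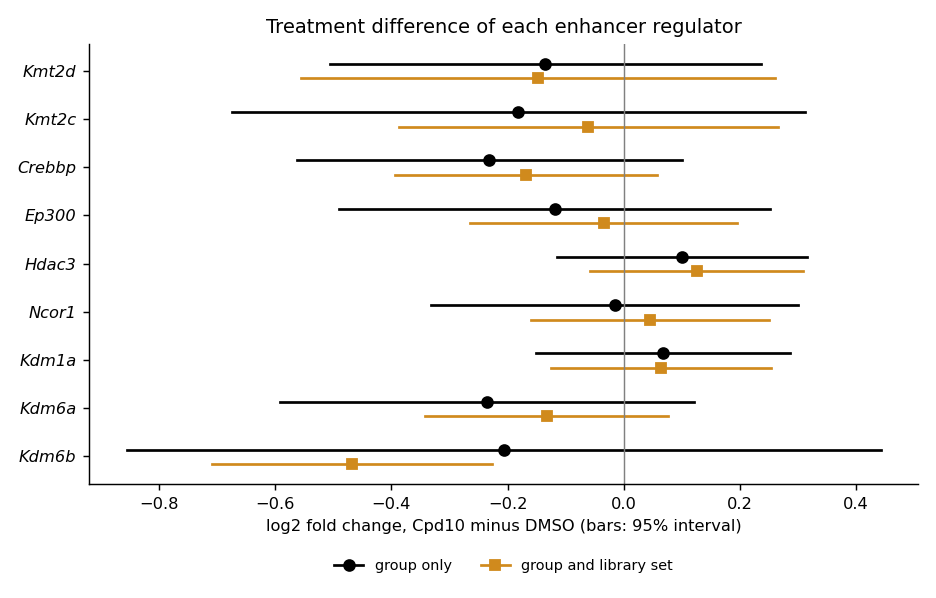
Log2 fold change of Cpd10 minus DMSO for each enhancer regulator with its unadjusted 95% interval, without the library set (black circles) and with it as a term (orange squares). All 9 black intervals cross 0; with the set term Kdm6b lies at -0.47 and its interval does not.

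The balance of opposed enzymes was read as the log2 ratio of 2 genes within a library, which does not depend on library scaling. The ratios are of CPM and are not scaled by length. Crebbp to Ep300 was at -1.06, -1.01 and -1.02 with Cpd10 and at -0.89, -0.85 and -1.01 with DMSO. All 3 Cpd10 libraries lay below all 3 DMSO libraries, by a mean of -0.11. However, Cpd10 B at -1.0099 and DMSO C at -1.0077 nearly met, so this lack of overlap is not secure. Crebbp to Hdac3, acetyltransferase to deacetylase, was at 0.11, -0.33 and -0.05 with Cpd10 and at 0.16, 0.25 and 0.37 with DMSO, again with no overlap and a mean difference of -0.35. For both ratios the exact two-sided permutation p was 0.1, the smallest that 3 against 3 libraries allow. It was 0.3 after Benjamini-Hochberg adjustment over the 6 ratios computed, 5 of which are given here. A ratio could thus not pass 0.05 in this test whatever its values, and the test decides nothing about these ratios. Kmt2d to Kmt2c, Kdm6a to Kdm6b and Kmt2d to Kdm1a overlapped between the groups, with mean differences of 0.074, -0.015 and -0.19 (exact permutation p = 0.9, 1 and 0.6). Crebbp enters both ratios without overlap, and among the 9 genes it had the smallest p.

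Most members differed more between the library sets than between the treatments. In the fit with both terms, the difference of set 2 minus set 1 was larger in size than that of Cpd10 minus DMSO for 6 of the 9 genes. The sets were found in these same counts and the treatment groups were not, which favours a larger set difference. Kmt2c, Kdm6a, Ep300, Crebbp and Ncor1 were lower in set 2, by log2 differences of -0.42, -0.33, -0.30, -0.23 and -0.22, and Hdac3 by -0.080. Kdm1a and Kmt2d differed by 0.0093 and 0.043, and Kdm6b was higher in set 2 by 0.72. Of the 9 genes, 5 have over 12 kb of exon. Over all genes the set difference ran weakly with length (Spearman -0.15, and -0.091 for Cpd10 minus DMSO). Among genes that averaged at least 10 CPM, the median set difference was 0.12 for genes with under 2 kb of exon (n = 1067), -0.055 for 4 to 8 kb (n = 3565) and -0.15 for over 12 kb (n = 525). The median difference of Cpd10 minus DMSO moved the same way by less, at 0.063, -0.0022 and -0.064 in these classes. Of the 5 members over 12 kb, Kmt2d, Kmt2c, Crebbp, Ep300 and Ncor1, the treatment difference was below -0.064 for all but Ncor1. The part of length in the members' differences was not tested.

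**Figure D4:**
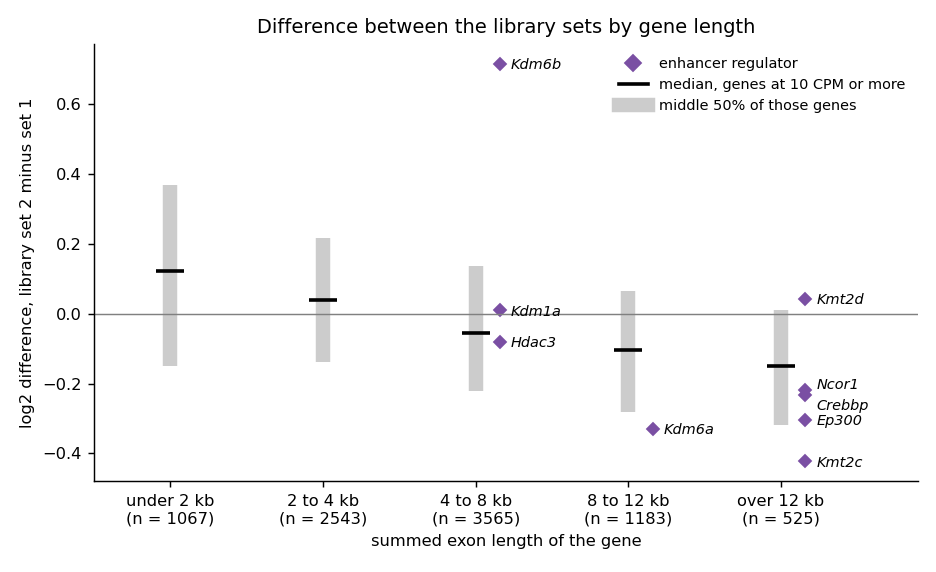
Log2 difference of library set 2 minus set 1 against the summed exon length of the gene. Black marks are medians and grey bars the middle 50% of genes at 10 CPM or more; purple diamonds are the enhancer regulators, of which Kdm6b lies highest at 0.72 and Kmt2c lowest at -0.42.

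Across the 6 libraries Kmt2c, Crebbp, Ep300 and Ncor1 followed each other. Pearson r of log2 CPM over 6 libraries was 0.97 for Kmt2c with Ep300, 0.96 for Ep300 with Ncor1, 0.93 for Crebbp with Ep300 and 0.84 for Crebbp with Ncor1, points that share library set and treatment. Kdm6b ran against Ncor1 (r = -0.73) and Ep300 (r = -0.63), Kmt2d followed its paralogue Kmt2c less closely (r = 0.59), and Kdm6a and Kdm6b had r = -0.50. Among 8650 genes that averaged at least 10 CPM, those with the pattern most like a member were E4f1 and Atf6b for Kmt2d, Kmt5b and Gbf1 for Kmt2c, Atp2a2 and Dhx8 for Crebbp, and Ap3b1 and Prpf4b for Ep300. For Hdac3 they were Rnf220 and Nudt1, for Ncor1 Ipo8 and Utp14b, for Kdm1a Gpkow and Anp32e, for Kdm6a Dclre1a and Rab3gap1, and for Kdm6b Rae1 and Ezh1. Pearson r for these 18 pairs ran from 0.981 to 0.998 over 6 libraries, each picked as the highest over all those genes, and is a description only.

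Partner genes of the enhancer regulators did not pass the test either. The 9 lists of partner genes held 71 genes, Kdm6a among them, of which 69 were tested. EdgeR called 0 of the 69 in either direction, beside 0.37% of all tested genes. DESeq2 and limma-voom also called 0 of the 69, beside 2.52% and 0.33% of all genes they tested. EdgeR and limma-voom called so few genes that 0 of 69 is close to their shares. The unadjusted p lay under 0.05 for 3 of the 69, which is 4.35%, beside 8.39% of all tested genes, and the median log2 fold change was -0.026. Among the subunits of the KMT2C and KMT2D complexes, 0 of 7 tested were called (median 0.026). Ncoa6 had -0.22 (SE 0.14, edgeR adjusted p = 0.771) and Dpy30, a core subunit, 0.18 (SE 0.14, edgeR adjusted p = 0.836), and Pagr1a was listed at 0 counts in every library. Another list held 7 genes of other complexes that methylate histone H3, both enzymes and subunits. Among them Men1, the gene of the subunit menin, was at 123 ± 13.9 CPM with Cpd10 and 97.8 ± 6.89 CPM with DMSO, without overlap (log2 fold change 0.32, SE 0.11, edgeR adjusted p = 0.460). With the library set as a term Men1 was called higher (0.40, edgeR adjusted p = 0.0144). It was the only partner gene of the 69 so called, beside 2.32% of all tested genes called higher by that fit. The call of Men1 was lost without Cpd10 A, Cpd10 C or DMSO B (edgeR adjusted p = 0.312, 0.102 and 0.0697, with log2 fold changes of 0.37, 0.38 and 0.44). Setd1b had -0.29 (edgeR adjusted p = 0.686) and Kmt2b 0.13 (edgeR adjusted p = 0.838).

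Among 6 demethylase genes and paralogues none was called, with Kdm1b at a log2 fold change of 0.17, Kdm5c at -0.065 and Kdm5d at 0.084. Of 10 other acetyltransferase and coactivator genes 0 were called and 8 had negative values, led by the steroid receptor coactivators Ncoa3 (-0.26, edgeR adjusted p = 0.603), Ncoa2 (-0.37, edgeR adjusted p = 0.606) and Ncoa1 (-0.24, edgeR adjusted p = 0.795). Of the other subunits of the NCOR and HDAC3 complex, 0 of 4 were called, and Tbl1xr1, Tbl1x and Gps2 had -0.14, -0.020 and 0.027. In the KDM1A and CoREST complex 0 of 11 tested were called. There the scaffold gene Rcor1 had -0.18 and the KDM1A-binding repressor gene Gfi1 -0.42 (edgeR adjusted p = 0.722 and 0.714).

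Readers of acetylated histones and Mediator subunits gave 0 of 10, with the bromodomain gene Brd3 at 0.27 (edgeR adjusted p = 0.719), the Mediator kinase gene Cdk8 at 0.15 and Med13 at -0.17. Of 10 subunits of the SWI/SNF nucleosome remodeller 0 were called. Its ATPase gene Smarca2 was at 108, 114 and 116 CPM with Cpd10 and at 152, 130 and 172 CPM with DMSO, without overlap (-0.43, SE 0.12, edgeR adjusted p = 0.291), and the other ATPase gene Smarca4 and Smarcc1 had -0.078 and -0.15. Of BCL6 and 4 corepressor genes 0 were called, and Bcl6 itself was at 52.1 ± 19.2 CPM with Cpd10 and 45.8 ± 13.2 CPM with DMSO. Bcor and Sin3a had -0.26 and -0.092.

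**Figure D5:**
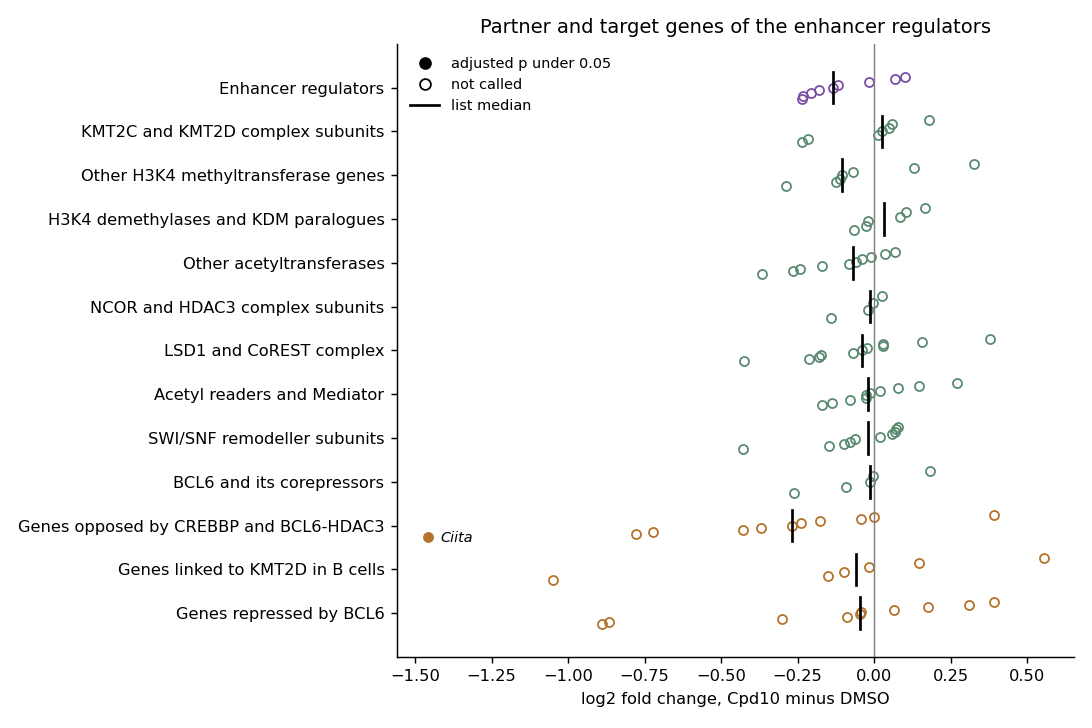
Log2 fold change of Cpd10 minus DMSO for every tested gene of the enhancer regulator list, the partner lists (green) and the target lists (orange); black lines are list medians and filled points are genes called by edgeR. Ciita at -1.46 is the single called gene, and the medians of the partner lists lie between -0.10 and 0.033.

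Among genes known to depend on these enzymes or on BCL6 in B cells or lymphoma, a single gene passed the test. Of 26 target genes in 3 lists, all tested, 1 was called, lower with Cpd10, beside 0.0529% of all tested genes called lower. EdgeR's unadjusted p lay under 0.05 for 6 of the 26 (23.1%), beside 8.39% of all tested genes. Of these 6, 4 belong to MHC class II (Ciita, H2-Ab1, H2-Eb1 and H2-DMa), all lower, and the others were Sgk1 (lower) and Cdkn1b (higher). The lists were chosen with earlier results of these data known, so these shares are a description only. The called gene was Ciita, the activator of MHC class II genes and a target of both CREBBP and the BCL6 and HDAC3 complex. It was at 144, 141 and 121 CPM with Cpd10, against 401, 265 and 450 CPM with DMSO (log2 fold change -1.46, SE 0.20, edgeR adjusted p = 0.0355). Every Cpd10 library lay below every DMSO library. In fits without the library set, the call was lost without any 1 library other than DMSO B. Log2 fold changes where it was lost were -1.30 to -1.50, with edgeR adjusted p-values of 0.0726 to 0.239. With the set as a term Ciita was called (log2 fold change -1.29, edgeR adjusted p = 0.000662). With that term it stayed called without any 1 library, at edgeR adjusted p-values of 0.000251 to 0.00897. The set was found in the same counts, so the calls with the set term are exploratory. DESeq2 called 3 of the 26, all lower (Ciita, H2-Ab1 and H2-Eb1), beside 1.11% of all genes called lower by it. In the same list of 11 genes, the class II chain genes H2-Eb1 and H2-Ab1 had -0.78 and -0.72 without overlap (edgeR adjusted p = 0.130 and 0.211, which became 0.0110 and 0.0124 once the library set was a term). The list median was -0.27. Of 6 genes linked to KMT2D, 0 were called, and Sgk1, a kinase gene at 1.94 ± 0.414 CPM with Cpd10 and 4.03 ± 1.25 CPM with DMSO, had -1.05 (SE 0.35, edgeR adjusted p = 0.449), Socs3 0.55 and Traf3 -0.15. Of 10 genes repressed by BCL6, 0 were called, and the cell cycle inhibitor gene Cdkn1b, the activation marker gene Cd69 and Prdm1, the plasma cell regulator, had 0.31, -0.86 and -0.89 (edgeR adjusted p = 0.356, 0.603 and 0.604). In the fit that included the library set, the 26 genes held 1 higher (Irf4) and 3 lower (Ciita, H2-Eb1 and H2-Ab1), beside 2.32% higher and 1.64% lower over all tested genes.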

How the data were processed

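Libraries were made from polyadenylated RNA with a directional kit, per the labels' protocols. The deposited values are raw counts per Ensembl gene, made by the authors with STAR 2.7.10a and featureCounts 2.0.6 on mm10, per the submitters' processing notes. Whether counting used strand is not given in the sources. Of 54838 identifiers, 54809 were given a symbol from GENCODE M21. Counts were tested with edgeR 4.0.16 in R 4.3.3 (filterByExpr, TMM factors, robust quasi-likelihood test, group only), with Benjamini-Hochberg adjustment over 15136 genes and a threshold of 0.05. CPM used TMM-scaled library sizes, and log2 CPM a prior count of 2. Alternatives used DESeq2 1.42.0 and limma 3.58.1. The test was tested on simulated data. Libraries were put in sets by genes at 3 or fewer counts in some libraries and 50 or more in the others. The members and lists were chosen with earlier results of these data known. Named genes were all members, called genes and the 3 smallest p per list, and the 2 most similar genes per member. Markers, Uty, Kdm6bos, Pagr1a, H2-DMa and Irf4 were named outside that rule, after their values were seen. A few results that the rule or design would give are not reported here.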

Additional observations from a re-analysis of the deposited data

How the results depend on the processing

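Libraries with the same letter were not alike throughout: their deviations from the group means correlated at 0.31 (A), 0.43 (B) and -0.31 (C). Cpd10 A correlated best with DMSO C (0.46), and Cpd10 B with DMSO B. Cpd10 C and DMSO C lie in different library sets, which these deviations also hold. The correlations therefore cannot decide whether a letter marks a shared animal or culture. With the letter as a replicate block, 49 genes were called in place of 56, 0 of the 9 enhancer regulators were called, and Ciita had an edgeR adjusted p of 0.0641. Over all genes, DESeq2 called 381, edgeR with no filter 194 and edgeR with the library set term 599, and leaving out 1 library gave 0 to 100 (with Cpd10 A, B or C left out 77, 1 and 0, and with DMSO A, B or C left out 5, 100 and 1). The cause was not tested. The count of enhancer regulators called stayed at 0 without any 1 library, and was 1 with the set term. With the set term and without 1 library, a choice made after seeing the data, it ranged from 0 to 1.

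Log2 fold changes kept their direction under both other size factors, DESeq2, limma-voom, both filters and the block. With the set term Ncor1 turned to 0.046, and Kdm6b moved to -0.47 and was called. Without 1 library the range was -0.29 to -0.0042 for Kmt2d, -0.39 to 0.0074 for Kmt2c, -0.39 to -0.12 for Crebbp, -0.29 to 0.0050 for Ep300 and 0.055 to 0.15 for Hdac3. It was -0.15 to 0.078 for Ncor1, 0.010 to 0.11 for Kdm1a, -0.37 to -0.13 for Kdm6a and -0.41 to 0.034 for Kdm6b, and -0.60 to -0.32 for Kdm6b with the set term, where it was called without DMSO A (-0.38) and without DMSO C (-0.50). Ratio differences without 1 library ranged from -0.029 to 0.25 for Kmt2d to Kmt2c, -0.16 to -0.080 for Crebbp to Ep300, -0.43 to 0.30 for Kdm6a to Kdm6b, -0.45 to -0.23 for Crebbp to Hdac3 and -0.38 to -0.0011 for Kmt2d to Kdm1a. With the set term, 2 ratio differences turned, Kmt2d to Kmt2c to -0.083 and Kdm6a to Kdm6b to 0.33. With 3 libraries a group, the spread between libraries and not the depth limits all of these values.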
